A study of Mus musculus with 4 samples.

Results

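The 31 mouse genes described here encode enzymes that build nucleotides and the carbon units that go into them, and they were taken as a named list of symbols out of the 32285 genes counted in each library. All 31 were found, and each had at least 100 UMIs (unique molecular identifiers, each counting 1 captured RNA molecule) among the B cells and among the T cells. The list holds 4 enzymes of pyrimidine synthesis (Cad, Umps, Dhodh and Ctps), 6 of deoxynucleotide supply (Tyms, Tk1, Dut, Rrm1, Rrm2 and Dctpp1), 12 of purine synthesis and recycling (Prps1, Ppat, Gart, Pfas, Paics, Adsl, Atic, Adss, Impdh1, Impdh2, Gmps and Hprt), 5 of folate one-carbon metabolism (Shmt1, Shmt2, Mthfd1, Mthfd2 and Mthfd1l), 3 of serine synthesis (Phgdh, Psat1 and Psph) and the nucleoside diphosphate kinase Nme1.

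Spleens came from C57BL/6NRj mice in which Il2rb, the beta chain of the receptors for interleukin 2 and interleukin 15, was deleted by CD19Cre (KO), and from CD19Cre controls. CD19Cre acts in B cells, so the CD4+ T cells of KO mice are not its target. Per cell type, 4 pools were made: KO mice 4 days after an intraperitoneal injection of sheep red blood cells (SRBC), control mice at the same time, unimmunized KO mice and unimmunized control mice. Each pool carried its own hashtag antibody, and the number of mice behind a pool is not given in the labels. The genotype field of the labels carries the same text for KO and control, so the genotype of each pool rests on the hashtag key in the study's design text. B cells and CD4+ T cells were isolated magnetically and counted as single cells by 5′ sequencing, 1 library for each cell type. With 1 pool per genotype and day there is no replicate, so no difference below has a test. Intervals are 95% intervals of counting error alone, and a gene was called higher or lower where its ratio passed 1.5-fold with at least 20 UMIs in both groups together. Where a count of members is given under another depth range or scaling, the share over all genes was not computed.

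Resting lymphocytes meet most of their need for nucleotides by salvage, whereas a lymphocyte that enters the cell cycle makes purine and pyrimidine rings anew and reduces ribonucleotides to deoxynucleotides for DNA. Serine made from glucose, or taken up, gives a carbon unit to folate, and folate passes it to the purine ring and to thymidylate. Myc, a transcription factor induced on activation, is known to bind many genes of these routes, and the deoxynucleotide genes are known for a rise around S phase. Germinal center B cells and activated T cells are textbook examples of rapidly cycling cells in the spleen.

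The B library held 5291 B cells with 35730756 UMIs in all and the T library 7502 T cells with 44072343 UMIs after filtering, and median depth was 5435 and 5173 UMIs per cell. Pools held 989 to 1877 B cells and 984 to 3237 T cells, with medians of 4653.5 to 6108 UMIs per B cell and 4521.5 to 5601 UMIs per T cell, the day 4 pools being the deeper. The 31 genes gave 51810 UMIs in B cells (0.145% of all) and 55348 in T cells (0.126%). The 2 libraries shared 84 cell barcodes, 1.33% of the barcodes of the B library. Il2rb itself was too low in B cells to check the deletion: 4 UMIs in KO and 9 in control B cells at day 4 (0.293 and 0.864 UMIs per 1000000, CPM, with intervals of 0.0799 to 0.751 and 0.395 to 1.64), and 0 UMIs in either pool at day 0, where the intervals reach 0.650 CPM in KO and 0.615 CPM in control. T cells had 103 CPM of Il2rb in KO and 110.1 CPM in control pools at day 4, and 73.4 and 87.6 CPM at day 0.

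To see which cells carry these genes, cells were placed in marker gates that use none of the 31 genes. A cell went into the first gate it met: germinal center genes such as S1pr2 for B cells or follicular helper genes such as Cxcr5 and Pdcd1 for T cells, then 22 mitotic genes such as Mki67 and Top2a (dividing), then Myc, then for B cells the activation genes Samsn1, Nfil3, Lifr and Gadd45g, then a resting set that includes Klf2 with no UMI of Myc or of a mitotic gene. The activation genes were taken from earlier results of these data, as genes of activated B cells at day 4. B cells divided into 120 germinal center, 58 dividing, 199 Myc-high, 772 activated and 1944 resting cells, with 2198 left as other. T cells divided into 1047 follicular helper, 42 dividing, 178 Myc-high and 3616 resting cells, with 2619 left as other. The gates are ranges of a count, not cell types: 37 of the 120 germinal center cells, 42 of the 199 Myc-high B cells and 211 of the 1047 follicular helper cells sat at the minimum UMI count, and 294, 526 and 828 cells sat 1 UMI below it. Dividing cells were the deepest, with a median of 26875 UMIs in B cells and 17918.5 in T cells, against 4578.5 and 4676 UMIs in resting cells. Levels were therefore compared as CPM, which scales out total RNA per cell. The dividing B gate was also rich in plasmablast genes: Jchain, the joining chain of secreted antibody, was at 2521 CPM there, 948 CPM in the germinal center gate and 417 CPM in resting cells. Cells of no named gate held 1581 CPM of Jchain, from 26065 UMIs against 4913 UMIs in the dividing gate. The dividing T gate held 61.9 CPM of Foxp3, the transcription factor of regulatory T cells, against 77.4 CPM in the follicular helper gate and 27.6 CPM in resting T cells. Cxcr5 was at 3.71 CPM in the dividing T gate and 50.6 CPM in the follicular helper gate.

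In dividing B cells nearly the whole list was up. The 31 genes together held 3968 CPM in dividing B cells and 1026 CPM in resting B cells, a ratio of 3.87 (3.75 to 3.99). Per cell this was 133 UMIs against 4.94 UMIs. Of the 31 genes, 30 were called higher and none lower, where 24.2% of all 10830 genes counted were called higher and 31% lower. Their median log2 ratio was 1.70, against -0.13 over all genes counted. Dhodh, the mitochondrial enzyme that oxidizes dihydroorotate, was the exception at 13.3 CPM in dividing and 13.5 CPM in resting B cells (ratio 0.992, 0.624 to 1.52). With cells of 2000 to 20000 UMIs, the list's median log2 ratio was 1.19. At that setting Gmps (-0.010) and Mthfd1 (-0.56) turned in direction.

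The 6 deoxynucleotide genes had the largest ratio as a group, 1396 CPM in dividing B cells against 98.7 CPM in resting B cells in sum, a ratio of 14.1 (13.1 to 15.3). Rrm2, the S phase subunit of the ribonucleotide reductase that makes deoxynucleotides, had 716 UMIs (367 CPM) in 58 dividing cells and 13 UMIs (1.39 CPM) in 1944 resting cells, a ratio of 265 (154 to 500). Tyms, which makes thymidylate, was at 130 CPM in dividing and 3.31 CPM in resting B cells (ratio 39.2, 26.9 to 58.9). Tk1, which phosphorylates thymidine, was at 136 and 8.22 CPM (ratio 16.5). Resting B cells held few UMIs of these 3 genes (13, 31 and 77), so the size of each ratio depends on few counts. Dut, which removes dUTP, was at 407 CPM in dividing and 37.7 CPM in resting B cells (ratio 10.8). Rrm1, the large reductase subunit, was at 197 and 22.0 CPM (ratio 8.96), and Dctpp1, which clears dCTP, was at 158 and 26.1 CPM (ratio 6.07).

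The other groups rose less. Serine synthesis came to 323 CPM in dividing and 78.7 CPM in resting B cells (ratio 4.10), and Psat1, the aminotransferase of that route, had the largest ratio outside the deoxynucleotide genes, 89.8 against 10.1 CPM (8.85, 6.86 to 11.5). The folate genes summed to 292 CPM in dividing and 83.7 CPM in resting B cells (ratio 3.49), with Shmt1, the cytosolic serine hydroxymethyltransferase, at 27.2 and 4.16 CPM and Mthfd2, a mitochondrial folate dehydrogenase, at 60.0 and 12.4 CPM. Pyrimidine synthesis had a ratio of 3.09, with Ctps, the CTP synthase, at 30.3 against 6.19 CPM and Cad, which carries the opening steps of the route, at 53.4 against 16.4 CPM. All 12 purine genes were called higher, but by the least, 1189 CPM in dividing against 531 CPM in resting B cells in sum (ratio 2.24). Within that group Ppat, which commits ribose to the purine route, had the largest ratio (3.26) and Adss, which makes the precursor of AMP, the smallest (1.75).

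**Figure D1:**
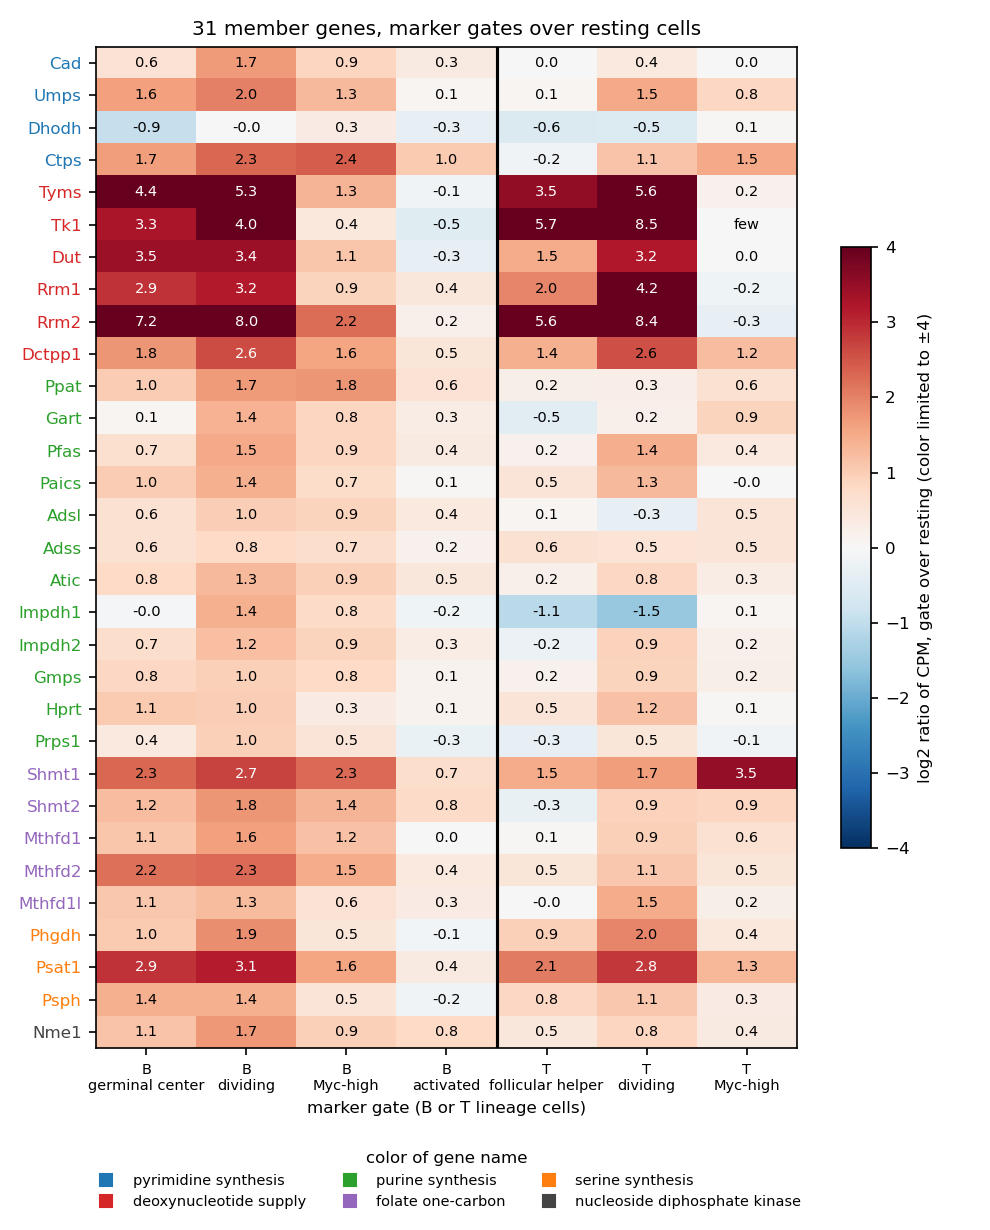
Log2 ratio of each gene's CPM in a marker gate over resting cells, for the 4 B gates and the 3 T gates, printed in each cell and shaded with the color scale limited to ±4. Rrm2 and Tyms are among the 3 highest values in the germinal center, follicular helper and dividing columns, Psat1 lies above Dctpp1 in each of these, and Tk1 in Myc-high T cells had fewer than 20 UMIs and is marked few.

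The germinal center gate gave a similar picture through part of its cells. The 31 genes summed to 2895 CPM there against 1026 CPM in resting B cells (ratio 2.82, 2.72 to 2.93). Of the 31 genes 27 were called higher and 1 lower, where 20.5% of 10708 genes were called higher and 22.6% lower. The lower one was Dhodh, at 7.08 CPM in the germinal center gate against 13.5 CPM in resting cells, from 10 and 126 UMIs. With cells of 2000 to 20000 UMIs, 15 members were past the fold, and the share of all genes at this setting was not computed. Rrm2 was at 210 CPM, Dut at 414 CPM and Tyms at 72.2 CPM in the gate. Of the 120 cells, 35 also met the mitotic rule, and these carried most of the difference: their 31-gene sum was 4.02 times that of resting cells and their deoxynucleotide sum 16.6 times. The 85 cells that did not meet it had ratios of 1.23 and 2.18, and 1.13 for the 25 genes outside deoxynucleotide supply.

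Myc-high B cells held more RNA of most members than resting cells, and less of the deoxynucleotide genes than dividing cells. By the gate order, cells that met the mitotic rule were placed first, so 0 of the 199 Myc-high cells met it. A lower deoxynucleotide sum than in dividing cells is therefore partly set by the gates. Dividing B cells themselves held 119 CPM of Myc. The 31 genes summed to 1933 CPM in Myc-high and 1026 CPM in resting B cells (ratio 1.88, 1.81 to 1.96), and 24 of 31 were called higher and none lower, where 12.1% of 10553 genes were called higher and 15.3% lower. Ctps was at 33.0 CPM in Myc-high and 6.19 CPM in resting B cells (ratio 5.33, 3.58 to 7.90), the largest in the list. Shmt1 followed at 20.1 against 4.16 CPM (4.82), Ppat at 51.1 against 14.9 CPM (3.42), Dctpp1 at 78.3 against 26.1 CPM (3.004), Psat1 at 30.4 against 10.1 CPM (2.997) and Mthfd2 at 34.3 against 12.4 CPM (2.77). Ctps and Ppat were thus about as high in CPM as in dividing cells, which had 30.3 and 48.7 CPM, while Shmt1 was at 27.2 CPM in dividing cells. The deoxynucleotide sum was 226 CPM in Myc-high and 98.7 CPM in resting B cells (ratio 2.29, 2.02 to 2.59), and the other 25 genes had a ratio of 1.84 (1.76 to 1.92). Set against dividing B cells, the deoxynucleotide sum of Myc-high cells stood at 0.162 and that of the other 25 genes at 0.664. Tk1 was at 11.0 CPM in Myc-high and 8.22 CPM in resting B cells (ratio 1.34, 0.741 to 2.28). Rrm2 passed the fold at 6.47 against 1.39 CPM, but its 10 UMIs lay in 3 cells of the KO day 4 pool, 6 of them in 1 cell, and among cells of 2000 to 20000 UMIs its log2 ratio was -0.88. Rrm1 passed the fold too (1.85), with 43 UMIs in the KO day 4 pool and 4 in the control day 4 pool, and in the control day 4 pool alone its log2 ratio was -0.75. Markers of other cell types, 18 genes, summed to 80.9 CPM in Myc-high and 58.8 CPM in resting B cells, and their part was not tested.

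**Figure D2:**
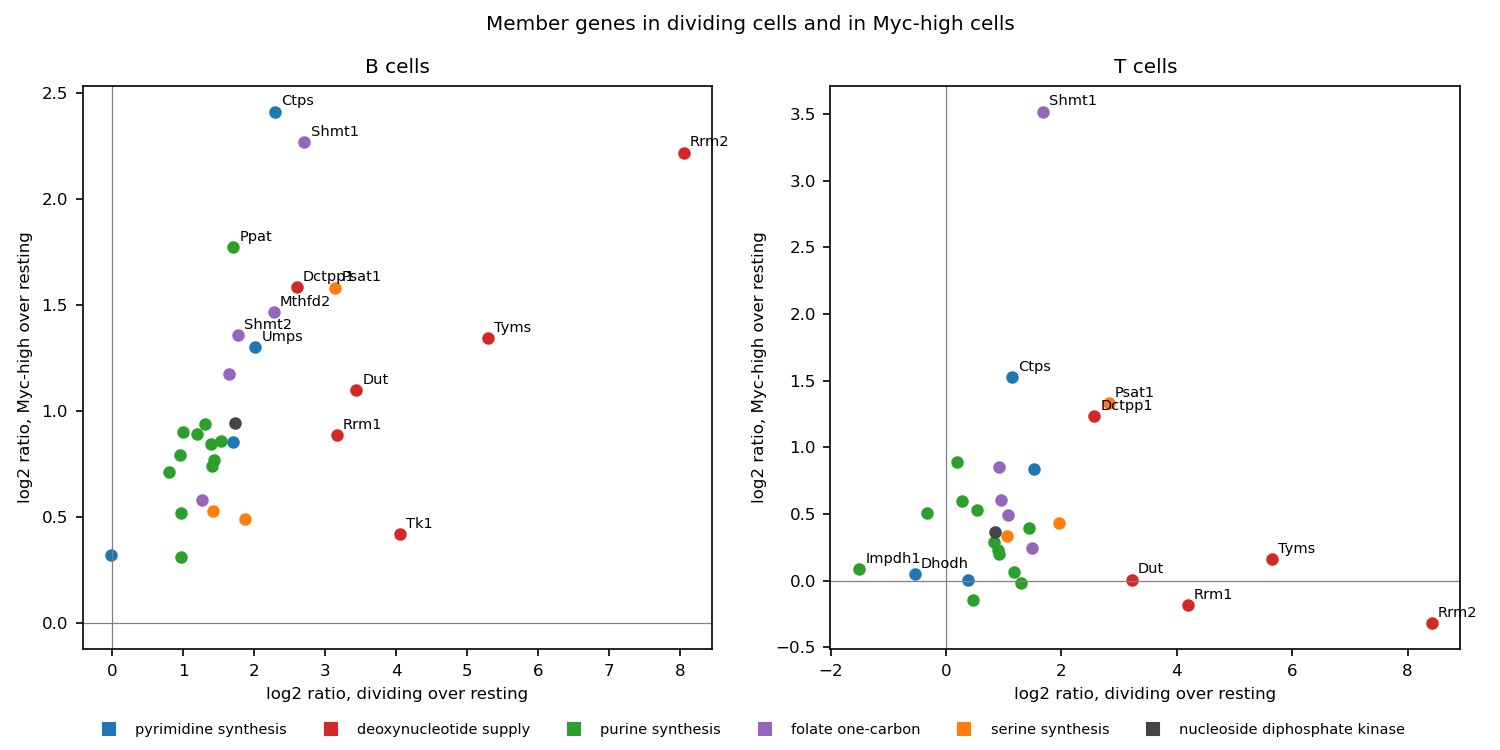
Each point is 1 gene, with its log2 ratio in dividing over resting cells on the horizontal axis and in Myc-high over resting cells on the vertical axis, for B cells and T cells, colored by role. In B cells Ctps and Shmt1 lie highest on the vertical axis and Rrm2, Tyms and Tk1 farthest to the right, and T cells show 30 genes because Tk1 had fewer than 20 UMIs in the Myc-high and resting gates.

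The letters around the start sites are shown for 5 members, Paics, Ppat, Impdh2, Tyms and Nme1. In RefSeq windows of 250 bases before to 50 after a start site (GRCm38.p6), 29 of the 31 genes had a window. The E-box CACGTG, a palindrome that Myc can bind and that reads the same on either strand, was present for 5 of the 29 (17.2%: Atic, Tyms, Paics, Impdh2 and Nme1), against 8.09% of all 27025 genes with a window and 7.15% of all 32851 windows. E2F-type letters (TTTCCCGC, GCGGGAAA, TTTGGCGC or GCGCCAAA, which cover both strands) were present for 1 of the 29 (3.45%: Ppat), against 1.80% of all genes with a window and 1.56% of all windows. A gene counts as holding a motif where any of its windows does, and the 29 members had 33 windows. A match describes letters and does not show binding. Paics and Ppat are shown since they share a start region: Ppat (chr5:76913249-76951578, minus strand) and Paics (chr5:76951307-76967509, plus strand) run away from each other and overlap by 272 bases. The sources used here do not say whether counting used strand, so reads from the overlap could go to either gene. Impdh2, the main IMP dehydrogenase of proliferating cells, Tyms and Nme1 are shown for their E-boxes. Capitals mark the E-box or, in Ppat, the E2F-type letters, and each line runs 5′ to 3′ along the gene.
Paics, chr5:76951052-76951351, plus strand: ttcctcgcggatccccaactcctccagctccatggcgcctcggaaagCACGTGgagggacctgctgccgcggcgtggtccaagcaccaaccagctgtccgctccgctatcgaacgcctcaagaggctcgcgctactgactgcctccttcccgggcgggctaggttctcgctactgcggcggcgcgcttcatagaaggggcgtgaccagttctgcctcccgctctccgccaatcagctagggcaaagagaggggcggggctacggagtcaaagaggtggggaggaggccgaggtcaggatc
Ppat, chr5:76951529-76951828, minus strand: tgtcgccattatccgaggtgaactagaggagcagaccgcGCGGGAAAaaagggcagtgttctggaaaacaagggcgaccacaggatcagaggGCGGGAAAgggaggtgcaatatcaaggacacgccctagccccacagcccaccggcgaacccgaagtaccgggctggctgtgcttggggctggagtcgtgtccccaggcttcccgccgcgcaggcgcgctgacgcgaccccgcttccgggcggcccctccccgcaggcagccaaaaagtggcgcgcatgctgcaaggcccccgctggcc
Impdh2, chr9:108560186-108560485, plus strand: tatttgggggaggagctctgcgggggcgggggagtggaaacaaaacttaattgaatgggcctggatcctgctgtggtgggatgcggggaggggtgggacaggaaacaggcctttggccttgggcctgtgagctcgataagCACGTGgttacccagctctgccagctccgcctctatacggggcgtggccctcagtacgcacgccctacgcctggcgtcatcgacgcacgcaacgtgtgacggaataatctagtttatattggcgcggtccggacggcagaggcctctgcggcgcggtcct
Tyms, chr5:30073576-30073875, minus strand: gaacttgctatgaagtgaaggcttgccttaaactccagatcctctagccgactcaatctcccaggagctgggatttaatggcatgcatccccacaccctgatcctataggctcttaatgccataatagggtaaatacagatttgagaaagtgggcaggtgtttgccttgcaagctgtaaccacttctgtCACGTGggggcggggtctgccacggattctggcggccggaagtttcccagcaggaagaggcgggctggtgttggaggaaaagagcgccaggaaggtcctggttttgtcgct
Nme1, chr11:93968223-93968522, minus strand: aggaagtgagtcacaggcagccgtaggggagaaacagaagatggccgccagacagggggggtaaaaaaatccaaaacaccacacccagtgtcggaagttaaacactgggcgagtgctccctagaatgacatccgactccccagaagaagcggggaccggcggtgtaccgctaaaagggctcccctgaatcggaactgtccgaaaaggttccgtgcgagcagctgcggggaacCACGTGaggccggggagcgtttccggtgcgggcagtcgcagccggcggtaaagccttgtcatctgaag
The E-box began 203 bases before the start site in Paics, 110 before it in Impdh2, 61 before it in Tyms and 18 before it in Nme1. In windows not shown, an E-box began 7 bases before the start site in Atic and 29 before another start site of Nme1. The 2 E2F-type stretches of Ppat began 211 and 158 bases before its start site. Ratios of Myc-high over resting B cells for these 5 were 1.67 for Paics, 3.42 for Ppat, 1.86 for Impdh2, 2.54 for Tyms and 1.93 for Nme1. Ctps and Shmt1, with the largest ratios, had neither motif in their windows.

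Activated B cells were 468 KO and 294 control cells at day 4 and 4 KO and 6 control cells at day 0. The genes of this gate came from earlier day 4 results of these data, so the split by day is partly set by that choice. Fewer members were called higher over resting cells here than in the other B gates. Of 31 genes 4 were called higher and none lower, where 3.82% of 10762 genes were called higher and 13.8% lower: Ctps at 12.7 CPM in activated and 6.19 CPM in resting B cells (2.05), Nme1 at 319 and 183 CPM (1.74), Shmt2, the mitochondrial serine hydroxymethyltransferase, at 51.7 and 30.5 CPM (1.69) and Shmt1 at 6.84 and 4.16 CPM (1.64). The deoxynucleotide sum was 107 CPM in activated and 98.7 CPM in resting B cells (ratio 1.09, 0.975 to 1.21). The whole list stood at 1.26 (1.22 to 1.302). By counting interval alone 11 genes were higher and 1 lower, where 12.4% of all genes were higher and 20.5% lower.

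In T cells the dividing gate showed the same deoxynucleotide peak and fewer changes in purine genes. The list summed to 3430 CPM in 42 dividing T cells and 1057 CPM in resting T cells (ratio 3.24, 3.12 to 3.38), with 23 of 31 genes called higher and 1 lower, where 27.6% of 11063 genes were called higher and 25.4% lower. Rrm2 was at 434.5 CPM in dividing and 1.27 CPM in resting T cells (ratio 342, 222 to 552), and Tk1 at 165 and 0.463 CPM (ratio 356, 175 to 841), from 133 and 8 UMIs. Tyms stood at 182 and 3.64 CPM (49.95), Rrm1 at 232 and 12.7 CPM (18.2), Dut at 423 and 45.6 CPM (9.29) and Psat1 at 91.6 and 12.95 CPM (7.07). Of the 12 purine genes 6 were called higher. Impdh1, the second IMP dehydrogenase, was called lower at 14.9 CPM in dividing and 42.2 CPM in resting T cells (ratio 0.352, 0.181 to 0.618). In B cells Impdh1 went the other way, 29.8 CPM in dividing and 11.0 CPM in resting cells (ratio 2.71), but this rested on the control pool, where 49 UMIs (52.9 CPM) were counted at day 4 against 8 UMIs (9.81 CPM) in KO dividing cells. In the KO day 4 pool alone the log2 ratio of Impdh1 in dividing over resting B cells was -0.21.

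In follicular helper T cells the deoxynucleotide and serine genes were up, while the list as a whole lay near the median of all genes. The list summed to 1587 CPM in the gate against 1057 CPM in resting T cells (ratio 1.501, 1.47 to 1.53), with 11 of 31 called higher and 2 lower, where 25.7% of 11826 genes were called higher and 9.01% lower, and with a median log2 ratio of 0.23 beside 0.21 over all genes counted. Scaled to the median gene, which stood 0.19 higher on the log2 scale in the gate, the list's median was 0.034. By counting interval alone 17 genes were higher and 6 lower, where 44.4% of all genes were higher and 15.3% lower. All 6 deoxynucleotide genes were called higher (sum 364 against 85.4 CPM, ratio 4.26), as were all 3 serine genes (175 against 78.0 CPM, ratio 2.24), with Psat1 at 54.7 against 12.95 CPM. Impdh1 was called lower at 20.04 CPM in follicular helper and 42.2 CPM in resting T cells (0.475), and Dhodh at 7.18 and 10.8 CPM (0.664). Again the cells that met the mitotic rule, 103 of 1047, stood apart: their deoxynucleotide sum was 13.6 times that of resting T cells, against 1.85 times in the 944 cells that did not.

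In Myc-high T cells the members called higher were 3 of 5 folate genes, 2 of 4 pyrimidine genes, 2 of 12 purine genes, 1 of 3 serine genes and 1 of the 5 deoxynucleotide genes counted. The list summed to 1407 CPM in Myc-high and 1057 CPM in resting T cells (ratio 1.33, 1.26 to 1.41), and 9 of the 30 genes counted were called higher and none lower, where 9.85% of 10893 genes were called higher and 14.7% lower. Shmt1 was at 26.5 CPM in Myc-high T cells, from 26 UMIs in 15 cells, and 2.31 CPM in resting T cells (ratio 11.5, 6.71 to 19.2). It was 7.43 CPM in dividing T cells and 6.54 CPM in follicular helper cells, so the Myc-high gate held its highest level. Ctps followed at 27.5 against 9.54 CPM (2.88), Psat1 at 32.6 against 12.95 CPM (2.52), Dctpp1 at 50.9 against 21.7 CPM (2.35), Gart, which carries 3 steps of purine synthesis, at 62.2 against 33.6 CPM (1.85), Shmt2 at 43.8 against 24.2 CPM (1.81) and Umps, which makes UMP, at 25.5 against 14.3 CPM (1.78). Rrm2 had 1 UMI in the 178 Myc-high T cells, and Tyms 4. The deoxynucleotide sum was 116 CPM in Myc-high and 85.4 CPM in resting T cells (ratio 1.36, 1.11 to 1.65), with Dctpp1 the only one of the 5 counted past the fold, and the other 25 genes had a ratio of 1.33 (1.253 to 1.41). Set against dividing T cells, the deoxynucleotide sum of Myc-high cells stood at 0.0742 and that of the other 25 genes at 0.692. Pools differed: the list's median log2 ratio was 0.09 in the KO day 4 pool alone and 0.57 in the control day 4 pool alone.

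Rrm2 was thus found almost wholly in the germinal center or follicular helper and dividing gates, and the other members in smaller and varied parts. The dividing gate is set on mitotic genes, so genes of cycling cells gather there by the rule. The germinal center and dividing gates held 3.36% of B cells and 9.41% of all their UMIs, but 94.2% of the UMIs of Rrm2, 76.0% of those of Tyms, 56.7% of Tk1, 50.1% of Dut, 42.8% of Rrm1 and 36.9% of Psat1. The other 25 genes lay between 8.53% (Dhodh) and 27.3%. The follicular helper and dividing gates held 14.5% of T cells and 23.0% of their UMIs, but 92.5% of Rrm2, 88.7% of Tk1, 76.5% of Tyms, 60.0% of Rrm1, 52.7% of Psat1 and 48.4% of Dut, down to 12.7% of Impdh1. Replication genes not in the list, 15 genes such as Mcm2 and Pcna, behaved as the deoxynucleotide group did: all 15 were called higher in dividing B cells (sum ratio 12.1) and in dividing T cells (10.9).

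Neighboring routes were followed through 3 other lists. Their counts stand against the shares of all genes called higher and lower, which were 24.2% and 31% in dividing B cells, 20.5% and 22.6% in the germinal center gate, 12.1% and 15.3% in Myc-high B cells and 27.6% and 25.4% in dividing T cells. Of 26 counted genes for salvage and nucleoside handling, 14 were called higher and 7 lower in dividing B cells, led by Dctd (19.2, with 8 UMIs in resting cells), which deaminates dCMP, Ada (12.97), which deaminates adenosine, and Uck2 (10.8), a uridine-cytidine kinase. In the germinal center gate 13 were higher and 5 lower of 25, led by Ada (44.1), Nt5e (14.8), the surface enzyme CD73, and Uck2 (6.36). In Myc-high B cells 10 were higher and 5 lower of 25, led by Dctd (10.6), Uck2 (4.80) and Slc29a1 (3.86), a nucleoside transporter. In T cells 11 were higher and 6 lower of 26 in the dividing gate, led by Slc29a1 (4.33), Pnp (4.16), the purine nucleoside phosphorylase, and Dck (3.73), the deoxycytidine kinase. Of 15 counted folate and glycine genes, 7 were higher and 2 lower in dividing B cells. In Myc-high B cells Gcsh, of the glycine cleavage system, had the largest ratio of them (3.76). Of 11 counted ATF4 response genes, a set known to be induced by amino acid shortage, 4 were higher and 2 lower in dividing B cells. Their leader was Asns, the asparagine synthetase, from 30 UMIs in dividing and 4 UMIs in resting B cells (ratio 36.0, 12.7 to 141). Slc7a5, a transporter of large neutral amino acids, was higher in Myc-high B cells (4.57) and in Myc-high T cells (2.74).

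Day 4 was compared with day 0 within each genotype. In B cells Rrm2, Tyms and Tk1 rose in both genotypes. Rrm2 was at 28.4 CPM in KO B cells at day 4 and 11.8 CPM at day 0, and at 56.3 CPM in control B cells at day 4 and 5.67 CPM at day 0. Tyms was at 13.5 and 3.87 CPM in KO and at 21.2 and 6.67 CPM in control B cells. Tk1 was at 19.8 and 11.8 CPM in KO and at 25.5 and 10.3 CPM in control. In KO B cells 4 of 31 genes were called higher and none lower, where 5.59% of 11360 genes were called higher and 5.11% lower: Tyms (3.48), Rrm2 (2.41), Tk1 (1.68) and Shmt1 (1.60). In control B cells 8 were called higher and none lower, where 6.78% of 11274 genes were called higher and 8.05% lower: Rrm2 (9.92), Tyms (3.18), Tk1 (2.47), Dut (1.88), Psat1 (1.88), Rrm1 (1.78), Dctpp1 (1.58) and Nme1 (1.52). With cells of 2000 to 20000 UMIs, none of the 31 was past the fold in control B cells and 1 was in KO B cells. Scaled to the median gene, which stood 0.10 lower on the log2 scale at day 4, 13 were past the fold in control B cells. By counting interval alone 20 genes were higher in KO B cells at day 4 and none lower (11% and 13.1% of all genes), and 19 were higher and none lower in control B cells (12.8% and 22.7% of all genes). Nme1, which passes phosphate onto nucleoside diphosphates, was at 295 CPM at day 4 and 197 CPM at day 0 in KO, and at 323 and 212 CPM in control. Nme1 is nearly identical to Nme2, so its counts are uncertain. The whole list summed to 1487 CPM at day 4 and 1178 CPM at day 0 in KO (ratio 1.26, 1.23 to 1.298), and to 1682 and 1219 CPM in control (1.38, 1.34 to 1.42).

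**Figure D3:**
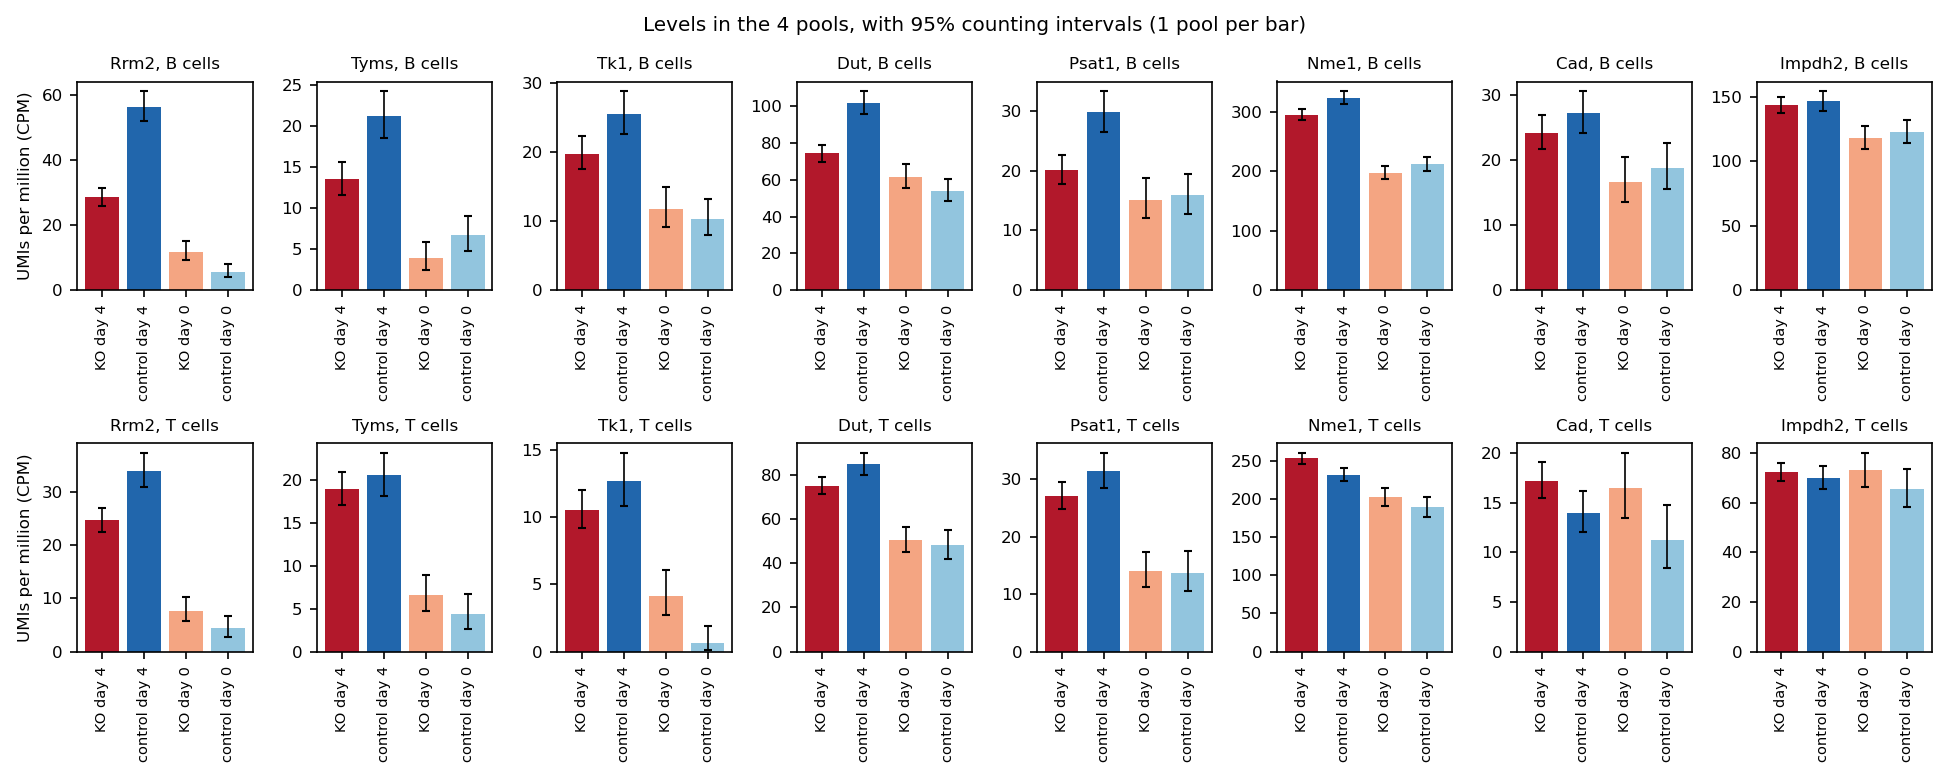
CPM of 8 member genes in each of the 4 pools of B cells (top) and T cells (bottom), 1 pool per bar, with 95% counting intervals and axes that start at 0. Rrm2, Tyms, Tk1 and Dut stand higher in the day 4 pools of both cell types, with control B cells the highest for Rrm2 at 56.3 CPM.

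T cells gave the same leaders. Rrm2 was at 24.6 CPM at day 4 and 7.69 CPM at day 0 in KO, and at 34.0 and 4.35 CPM in control. Tyms was at 19.0 and 6.57 CPM in KO and at 20.6 and 4.35 CPM in control, and Psat1 at 27.1 and 14.1 CPM in KO and at 31.4 and 13.7 CPM in control. All 3 were thus higher at day 4 in both genotypes. In KO T cells 5 of 31 were called higher and none lower, where 8.58% of 11778 genes were called higher and 3.7% lower: Rrm2 (3.20), Tyms (2.89), Tk1 (2.53), Psat1 (1.92) and Rrm1 (1.63). In control T cells 9 were called higher and none lower, where 10.7% of 11220 genes were called higher and 5.06% lower: Tk1 (19.5), Rrm2 (7.81), Tyms (4.73), Psat1 (2.29), Dut (1.76), Dctpp1 (1.62), Phgdh (1.62), Rrm1 (1.62) and Mthfd2 (1.52). The Tk1 value rests on 3 UMIs in the control day 0 pool. With cells of 2000 to 20000 UMIs, 5 members were past the fold in control T cells, and the log2 ratio of Rrm1 was -0.29. By counting interval alone 17 genes were higher and none lower in KO T cells (16.5% and 7.86% of all genes), and 14 were higher and 2 lower in control T cells (16% and 12.1% of all genes). Phgdh, the entry step of serine synthesis, was at 54.8 CPM at day 4 and 33.9 CPM at day 0 in control T cells. None of the 12 purine genes passed the fold in either cell type or genotype, with sum ratios of 1.14 in KO and 1.15 in control B cells, and 1.08 and 1.03 in KO and control T cells.

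The deoxynucleotide sum and the share of gated cells were both higher at day 4. The germinal center and dividing gates took 4.10% of KO and 5.004% of control B cells at day 4 and 2.22% and 1.18% at day 0, and gave 19.99% and 37.4% of the list's UMIs at day 4 and 10.2% and 7.13% at day 0. The follicular helper and dividing gates took 16.2% of KO and 20.9% of control T cells at day 4 and 7.64% and 5.08% at day 0. With cells thinned to 3000 UMIs each, germinal center cells made up 1.56% of KO and 2.10% of control B cells at day 4. Unthinned, these were 2.66% and 3.41%. At day 0 the thinned shares were 1.28% in KO and 0.317% in control. In KO the intervals overlapped, 1.03% to 2.26% at day 4 and 0.641% to 2.28% at day 0. In control they did not, 1.37% to 3.06% and 0.0654% to 0.923%. Thinned dividing cells made up 1.67% of KO and 2.10% of control B cells at day 4 (1.44% and 1.59% unthinned). At day 0 they made up 0.466% and 0.845%. The deoxynucleotide ratio of day 4 over day 0 was 1.43 in KO and 2.22 in control B cells, and 1.71 and 2.23 in KO and control T cells. Without the germinal center or follicular helper, dividing and Myc-high cells it was 1.04 and 0.923 in B cells and 1.246 and 1.05 in T cells. The interval of the KO T cell value was 1.12 to 1.38. Leaving out cells gated on mitotic genes leaves out cycling cells by the rule itself. In resting cells alone the whole list stood at 1.04 in KO and 0.994 in control B cells, and at 1.07 and 1.08 in KO and control T cells. In a pool's sum, a larger share of such cells and more RNA per cell cannot be told apart.

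**Figure D4:**
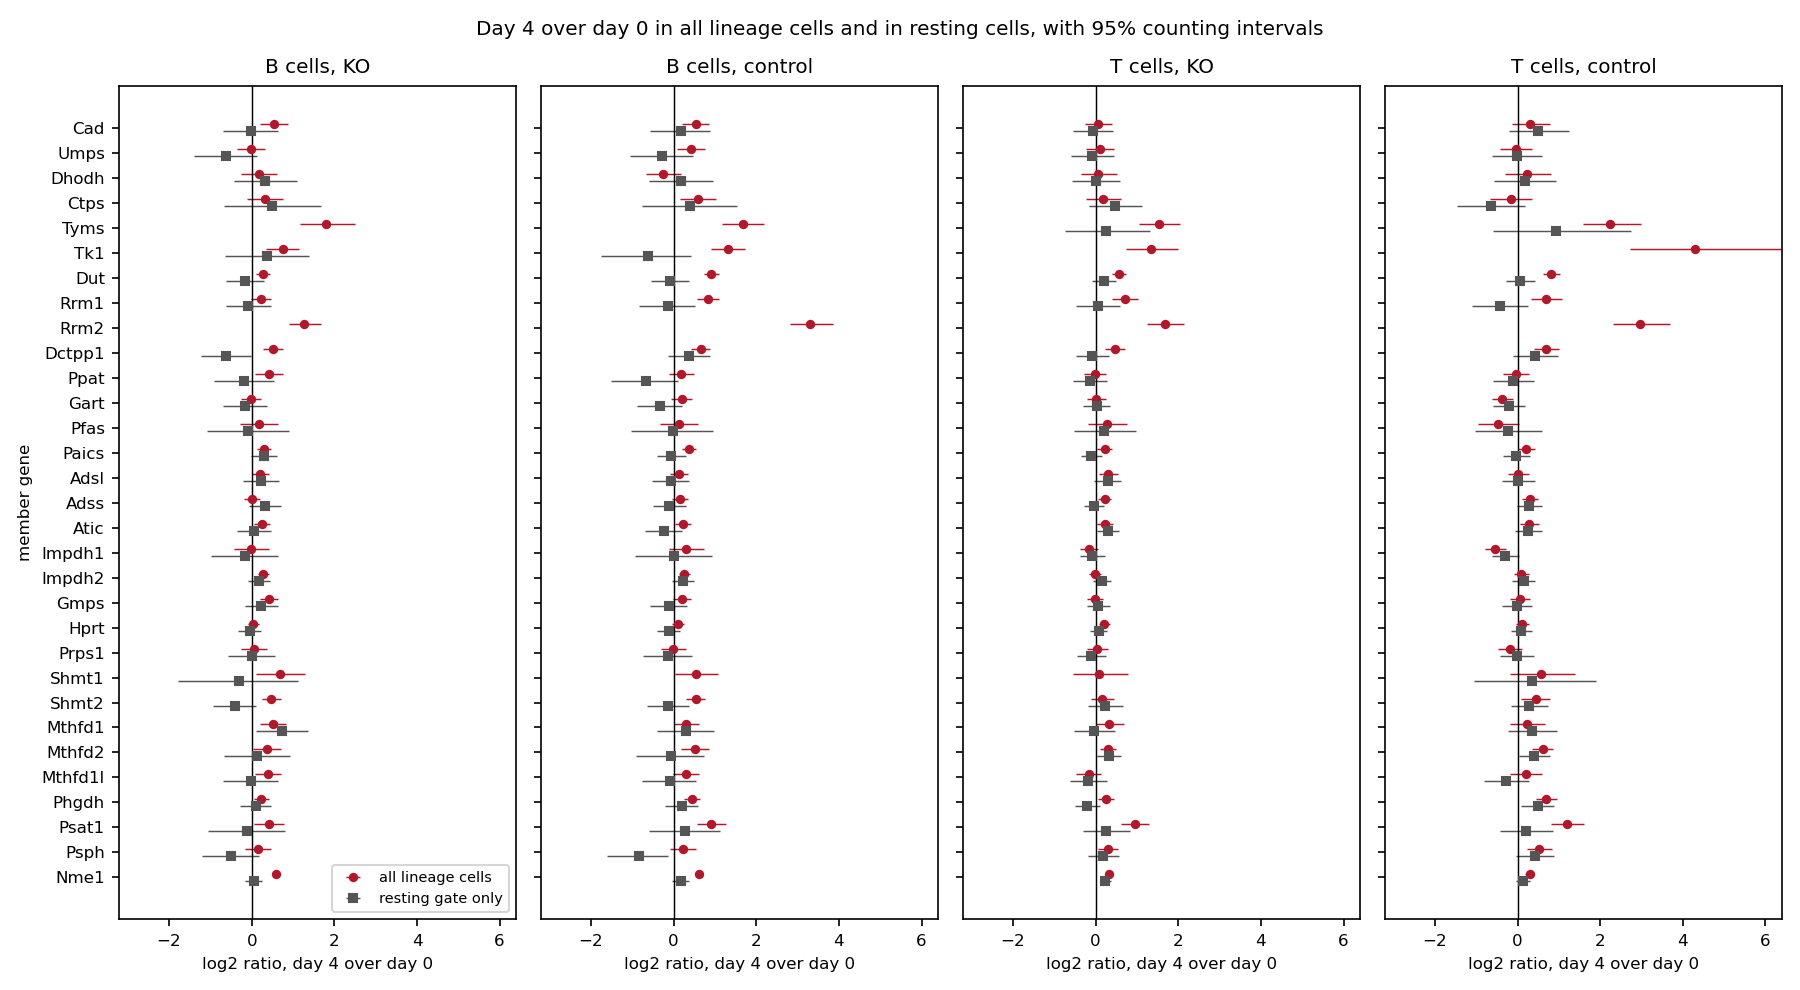
Log2 ratio of day 4 over day 0 for each gene, in all lineage cells (circles) and in resting cells alone (squares), with 95% counting intervals, in KO and control B cells and KO and control T cells. Rrm2, Tyms and Tk1 lie right of 0 in all lineage cells in each of the 4 panels, and the squares lie on both sides of 0, with Tk1 at -0.61 in control B cells. Squares with fewer than 20 UMIs are left out, and the interval of Tk1 in control T cells runs past the axis.

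Between KO and control B cells at day 4, the members past the fold were Rrm2 and Tyms, both of deoxynucleotide supply. Rrm2 was at 28.4 CPM in KO and 56.3 CPM in control B cells, from 388 UMIs in 56 cells and 586 UMIs in 40 cells (ratio 0.506, 0.444 to 0.576). Tyms was at 13.5 CPM in KO and 21.2 CPM in control B cells (ratio 0.636, 0.520 to 0.777). These 2 of 31 were called lower, and none was called higher, where 4.83% of 11660 genes were called lower and 3.1% higher, so the count is near the share over all genes. Short of the fold, Psat1 stood at 20.1 CPM in KO and 29.8 CPM in control (0.675), Dut at 74.5 and 102 CPM (0.731) and Tk1 at 19.8 and 25.5 CPM (0.775). The deoxynucleotide sum was 223 CPM in KO and 308 CPM in control B cells (ratio 0.724, 0.689 to 0.761), the purine sum 655 and 700.2 CPM (0.936) and the whole list 1487 and 1682 CPM (0.884, 0.866 to 0.902). By counting interval alone 12 genes were lower and none higher, where 9.24% of all genes were lower and 12.3% higher. The list's median log2 ratio was -0.15, against 0.03 over all genes counted.

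That difference lay in few cells. The cell with the most Rrm2 held 115 UMIs in the control day 4 pool, 19.6% of its total, and 55 UMIs in the KO day 4 pool (14.2%). Without the top cell of each member, Rrm2 stayed lower in KO. Within the dividing gate the list stood at 3256 CPM in 27 KO cells and 4809 CPM in 21 control cells (ratio 0.677), and within the germinal center gate at 2719 CPM in 50 KO cells and 3237 CPM in 45 control cells (0.840). The other 25 genes differed there too: the deoxynucleotide ratio was 0.746 in the dividing gate and 0.826 in the germinal center gate, and the ratio of the other 25 genes was 0.641 and 0.847. In resting B cells it stood at 1036 CPM in KO and 1032 CPM in control (1.004), and in the cells of no named gate at 1356 CPM in KO and 1217 CPM in control (1.11). Without the germinal center, dividing and Myc-high cells the list's ratio was 1.06 and the deoxynucleotide ratio 1.13, and neither Tyms nor Rrm2 was past the fold. Dividing control cells were deeper, with a median of 37740 UMIs against 26107 UMIs in KO dividing cells. Of the cells of these 2 gates, 24 of the 77 KO and 26 of the 66 control cells had over 20000 UMIs. With cells kept between 2000 and 20000 UMIs, the log2 ratio was 0.11 for Rrm2 and 0.05 for Tyms, so the direction of both turned. Jchain also differed, at 516 CPM in KO and 1622 CPM in control B cells at day 4, and the replication genes had a sum ratio of 0.767. Over the 4 pools, cells of no named gate held 26065 Jchain UMIs and the dividing gate 4913. The part of depth, of plasmablasts and of cell cycle phase in the difference was not tested.

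**Figure D5:**
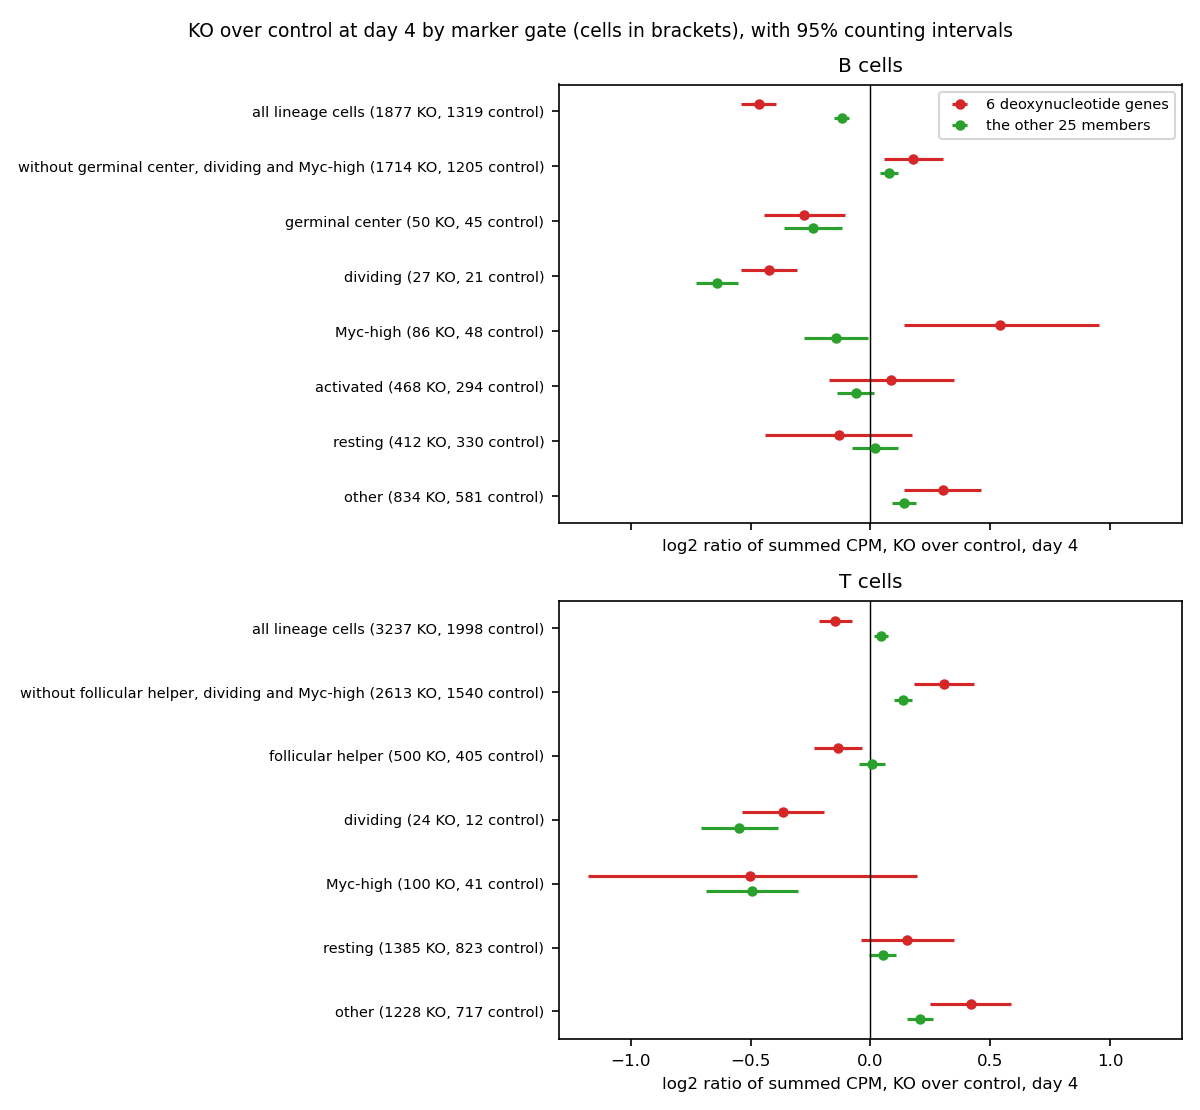
Log2 ratio of summed CPM in KO over control at day 4, with 95% counting intervals, for the 6 deoxynucleotide genes (red) and the other 25 members (green), in all lineage cells and in each gate, B cells above and T cells below, with KO and control cell numbers in brackets. The points lie left of 0 in the dividing gate of both cell types and right of 0 among other cells.

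Between KO and control T cells at day 4, no member passed the fold, where 2.95% of 12133 genes were called higher and 3.74% lower, and the list summed to 1320 CPM in KO and 1308 CPM in control T cells (ratio 1.01, 0.9901 to 1.03). With cells of 2000 to 20000 UMIs, 2 members were past the fold, and the share of all genes at this setting was not computed. By counting interval Rrm2 (24.6 CPM in KO, 34.0 CPM in control, ratio 0.725), Dut (0.884) and Psat1 (0.864) were lower, and Cad (1.23), Gart (1.16), Nme1 (1.09) and Hprt, which salvages hypoxanthine and guanine, were higher, where 6.5% of all genes were lower and 8.53% higher. Gates pointed both ways. The list stood at 2970 CPM in 24 KO and 4092 CPM in 12 control cells of the dividing gate (ratio 0.726) and at 1144 and 1613 CPM in 100 KO and 41 control Myc-high cells (0.709). In the cells of no named gate it stood at 1258 CPM in KO and 1075 CPM in control T cells (1.17). Without the follicular helper, dividing and Myc-high cells the list's ratio was 1.11 and the deoxynucleotide ratio 1.24.

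At day 0 the pools held few cycling cells and the deoxynucleotide genes gave mixed directions. In B cells Rrm2 was called higher in KO, 11.8 CPM from 67 UMIs in 13 cells, against 5.67 CPM from 34 UMIs in 18 cells in control (ratio 2.08), where 3.73% of 10768 genes were called higher. That direction turned without the germinal center, dividing and Myc-high cells, to a log2 ratio of -1.58, and in resting cells alone, to -1.81. Tyms was called lower at 3.87 CPM in KO and 6.67 CPM in control (ratio 0.581, 0.329 to 1.001), where 4.3% were called lower. The germinal center gate took 1.82% of KO and 0.633% of control B cells at day 0. In T cells Tk1 (4.17 CPM in KO, 0.652 CPM in control, ratio 6.39 with an interval of 1.96 to 33.0), Rrm2 (7.69 and 4.35 CPM, 1.77) and Tyms (6.57 and 4.35 CPM, 1.51) were called higher in KO, where 4.23% of 10430 genes were called higher and 3.72% lower. The counts behind them were small: 26 UMIs of Tk1 in 14 KO cells and 3 in 3 control cells, and 48 UMIs of Rrm2 in KO T cells, 18 of them in 1 cell. With cells of 2000 to 20000 UMIs no member was past the fold in T cells, and the log2 ratio of Rrm2 was -0.41. The other 25 members stayed within the fold in both cell types at day 0, with sum ratios of 0.945 in B cells and 1.04 in T cells.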

How the data were processed

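The deposited files hold whole-number UMI counts per gene and cell, made by the authors with Cell Ranger 5.0.0 on mm10, per the submitters' processing notes, and counts of 4 hashtag antibodies in the same matrices. No source used here names the annotation release. The B library held 6339 barcodes and the T library 9307. Barcodes under 200 genes or over 10% mitochondrial UMIs were dropped, which left 6218 and 9196. Each cell's pool was called from its hashtags by HTODemux (Seurat 5.3.0, R 4.3.3, quantile 0.99). Cells with several hashtags (568 and 1007) were left out as doublets, as were cells with none (173 and 553), and no further doublet caller was run. The median count of a cell's own hashtag was 1736 to 4469 over the 8 pools, against 57 to 150 for the next. A cell was taken as B or T lineage with at least 3 UMIs of its own 6-gene list and more than of the other lists.

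Gates needed, in order: at least 3 UMIs from 2 or more germinal center or follicular helper genes and 4 per 10000 UMIs; 3 UMIs and 10 per 10000 of the mitotic list; 2 UMIs and 4 per 10000 of Myc; 3 UMIs and 10 per 10000 of the activated list (B only); and for resting cells no UMI of Myc or the mitotic list, at most 1 of the first and activated lists, and at least 2 of the resting list. UMIs were summed over the cells of a pool or gate and scaled to a total of 1000000 (CPM). Each pool is 1 sample, so no test was run: levels carry exact Poisson and ratios conditional binomial 95% intervals, which cover counting error only. Genes under 20 UMIs over the 2 sums were not counted, and a call needed a 1.5-fold difference. The scripts used Python 3.11.15, numpy 2.4.6, scipy 1.17.1 and pandas 2.3.3. Only the ratio intervals and fold calls were tested, on Poisson counts simulated from KO B cells at day 4 over day 0. The intervals assume the same Poisson model, so this checks the calculation and not spread between cells. Gating, hashtag calls and the motif search were not tested.

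The 31 members, the gates and the other lists were chosen with earlier results of these data known. In each comparison the members past the fold were named, and the other lists were given by counts with their most changed genes, some of which are not reported here. Plasmablast and subset markers (Jchain, Foxp3, Cxcr5) were chosen after the data were seen. Gene positions came from an annotation of the same build (32235 of 32285 IDs matched) and promoter windows from RefSeq GRCm38.p6. Alternatives changed the fold, the UMI minimum, the hashtag rule, the scaling, the depth range, the gates and the cells kept.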

Additional observations from a re-analysis of the deposited data

Results flagged for a closer look

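In B cells the KO over control ratio of Rrm2 was 0.506 at day 4 and 2.08 at day 0, and that of Rrm1 was 0.864 at day 4 and 1.32 at day 0, so both genes were lower in KO at one time and higher at the other, with counting intervals that left out 1 each time. In T cells Rrm2 did the same, with 0.725 at day 4 and 1.77 at day 0. The direction of Rrm2 depended on the cells kept. With cells of 2000 to 20000 UMIs, its log2 ratio was 0.11 in B cells at day 4. At the same setting it was -0.41 in T cells at day 0. Without the germinal center, dividing and Myc-high cells, it was -1.58 in B cells at day 0. Nme1 at day 4 was lower in KO B cells (ratio 0.914) and higher in KO T cells (1.09). Impdh1 was higher in dividing than in resting B cells (2.71) and lower in dividing than in resting T cells (0.352), but in the KO day 4 pool alone, with 8 UMIs in dividing B cells, its log2 ratio in B cells was -0.21. With 1 pool per group, none of these differences between ratios was tested.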

How the results depend on the processing

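No paired analysis was possible because each genotype and day is 1 pool, and for the same reason no replicate could be left out. Over all settings, 249 values that summarize a comparison kept their size and direction, 78 moved and 6 turned. Of the values of single genes, 990 kept theirs, 294 moved and 42 turned. Changing the UMI minimum to 1 or 50, or assigning hashtags by ratio, moved no summary. Small gates, few UMIs per gene and single pools limit every value. Below, a count is of members past the fold and a median is of the members' log2 ratios. Except for calls by counting interval, shares over all genes were not computed at these settings. The counts therefore cannot be set against all genes. Except where a construction says so (a lower or higher fold, fewer cells), the cause of a change was not tested.

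Past a ratio of 5 to 4, a lower fold, the counts were 14 in KO and 16 in control B cells for day 4 over day 0, 9 and 15 in KO and control T cells, 6 and 5 for KO over control B cells at day 4 and day 0, 2 and 6 in T cells, 16 in activated B cells and 16 in Myc-high T cells. Past 2-fold they were 2 in KO and 3 in control B cells, and 3 and 4 in KO and control T cells, for day 4 over day 0. For KO over control they were 0 at day 4 and 1 at day 0 in B cells, and 1 at day 0 in T cells. They were 12 in Myc-high B cells, 1 in activated B cells and 4 in Myc-high T cells. By counting interval, day 4 over day 0 gave 20 in KO and 19 in control B cells and 17 and 16 in KO and control T cells. KO over control at day 4 gave 12 in B cells and 7 in T cells, activated B cells 12 and follicular helper cells 23.

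With cells of 2000 to 20000 UMIs, the day 4 over day 0 median was 0.13 in KO B cells (1 past the fold, Shmt1 at -0.068) and 0.070 in control B cells (0 past the fold, Dut at -0.078). KO over control at day 4 gave a median of 0.012 in B cells (0 past the fold, Tyms 0.045, Rrm2 0.11) and 0.075 in T cells (2 past the fold). At day 0 it gave 1 past the fold in B cells, and in T cells a median of -0.011 with 0 past the fold and Rrm2 at -0.41. Control T cells had 5 past the fold for day 4 over day 0, with Rrm1 at -0.29. Over resting cells, the median was 0.48 in the germinal center gate (15 past the fold, Cad -0.18, Pfas -0.27), 1.19 in dividing B cells (Gmps -0.010, Mthfd1 -0.56), 0.66 in Myc-high B cells (Rrm2 -0.88) and 0.54 in dividing T cells (Atic -0.062, Nme1 -0.019).

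Without the germinal center or follicular helper, dividing and Myc-high cells, the day 4 over day 0 median was 0.18 in KO B cells (2 past the fold) and 0.020 in control B cells (1 past the fold, Tyms -0.23, Dut -0.46, Rrm2 -0.79). It was 0.082 in control T cells (4 past the fold, Rrm1 -0.70), and KO T cells had 3 past the fold. KO over control at day 4 gave a median of 0.10 in B cells (0 past the fold, Tyms 0.15) and 0.11 in T cells (1 past the fold). At day 0 Rrm2 was -1.58 in B cells, and T cells had 1 past the fold.

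In resting cells only, the day 4 over day 0 median was -0.028 in KO B cells (Shmt1 -0.30) and -0.078 in control B cells (3 past the fold, Tyms -0.089, Tk1 -0.61, Dut -0.085, Rrm1 -0.14, Rrm2 -2.21). It was 0.059 in KO T cells (0 past the fold, Rrm2 -0.38), and control T cells had 2 past the fold (Tk1 -0.64, Rrm1 -0.42, Rrm2 -0.23). KO over control gave a median of 0.049 in B cells at day 4 (1 past the fold, Tyms 0.11, Rrm2 0.69), 0 past the fold at day 0 with Rrm2 at -1.81, and 2 and 1 past the fold in T cells at day 4 and day 0.

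Scaling by the median ratio gave 13 past the fold for day 4 over day 0 in control B cells and a median of 0.034 in follicular helper cells. The median gene stood 0.19 higher in follicular helper than in resting T cells, 0.12 lower in dividing than in resting B cells and 0.10 lower at day 4 in control B cells. With all assigned cells, control B cells had 5 past the fold for day 4 over day 0, and KO over control B cells at day 4 had 1. Without cells that met the mitotic rule, a setting chosen after seeing the data, the germinal center median was 0.22 with 7 past the fold (Cad -0.52, Pfas -0.38, Shmt1 -1.34 from 1 UMI, Shmt2 -0.046, Mthfd2 -0.11, Psph -0.023).

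In the KO day 4 pool only, Impdh1 was -0.21 in dividing and Pfas -0.010 in Myc-high B cells, 8 were past the fold in activated B cells and the Myc-high T median was 0.087. In the control day 4 pool only, Rrm1 was -0.75 and Mthfd1 -0.033 in Myc-high B cells, 7 were past the fold in activated B cells, and Myc-high T cells had a median of 0.57 with 15 past the fold. The Myc-high B median was 0.74 without the top cell of each member and 0.67 with gates set on thinned cells, where activated B cells had 2 past the fold. Stricter gates gave a Myc-high T median of 0.55 with 15 past the fold.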
